A study of Mus musculus with 2 samples.

Results

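The triad of skeletal muscle is the junction at which a T-tubule, an inward fold of the surface membrane, meets the sarcoplasmic reticulum, the calcium store of the muscle fibre. There the voltage sensor (the dihydropyridine receptor) in the T-tubule opens the ryanodine receptor in the store membrane, and the calcium released starts contraction. Junctophilins hold the membranes together, calsequestrins bind calcium inside the store, and triadin anchors calsequestrin to the release channel. The 10 triad genes described here were chosen by symbol: the voltage sensor subunits and their partner Cacna1s, Cacnb1, Cacng1 and Stac3, the release channel Ryr1, the junctophilins Jph1 and Jph2, the calsequestrins Casq1 and Casq2, and triadin, Trdn. All 10 were found by Ensembl identifier among the 16190 genes of the count table.

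Total RNA was sequenced from satellite cells, the stem cells of muscle, taken from the tibialis anterior muscle of C57BL/6 mice. The control library was made from mice whose Cipc alleles are floxed (Cipc flox/flox, titled Cipc+/+), and 1 further library from mice lacking Cipc in satellite cells (Cipc scko, titled Cipc-/-). Cipc encodes a repressor of the circadian transcription factors CLOCK and BMAL1. The series title speaks of mdx mice, but no label of either library names an mdx allele. Nothing in the sources used here gives the Cre line, the age of the mice, the number of mice per library or any time in culture. With 1 library per group nothing below has a replicate check or a test: the values describe 2 libraries, and intervals reflect the error of counting alone.

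The libraries held 16830168 counts (Cipc scko) and 16145870 counts (Cipc flox/flox). Pairs of values below give Cipc scko first and the control after it. The targeted gene Cipc had 594 and 1907 counts, or 37.0 and 113 CPM (counts scaled to a common library size with TMM factors). Xist had 4 and 3898 counts and the Y-linked Ddx3y 511 and 0. By these genes the Cipc scko library came from male cells and the control from female cells. Sex and genotype thus differed together and cannot be told apart in any ratio below, those of the triad genes included. The part of sex in the triad values was not tested. Among all genes past a filter on low counts, 21.2% were at least 2-fold higher in Cipc scko and 15.9% lower. Of 10 satellite cell and myoblast markers measured, 4 were at least 2-fold higher in Cipc scko and 1 lower. In each direction 1 of them passed the filter through its higher library alone. The summed level of the 10 was 7963 and 3947 CPM. Des, which is also made in differentiated muscle, was the largest part of both sums at 4451 and 1977 CPM and was called higher. Myod1, also called higher, had 19132 and 1916 counts, and Myf5, not called, 1062 and 1042. Pax7, the defining factor of satellite cells, had 998 counts in Cipc scko against 43 in the control, and Cdh15, the cadherin of satellite cells and myoblasts, 8514 against 7000. Cd34, a surface marker of quiescent satellite cells, was the 1 lower marker at 3 against 427, and Sdc4 had 1799 against 2985 and was not called. Chodl and Calcr of that list were not found in the count table. All 12 markers of differentiating muscle were higher in Cipc scko, with summed levels of 22253 and 143 CPM. Of these, 5 were under 1 CPM in Cipc flox/flox and passed the filter through Cipc scko alone, so they had to differ. The other 7 passed it in the control. Acta1, at 10868 and 8.80 CPM, was the largest part of the sum in Cipc scko. Ttn, at 327 and 78.7 CPM and 4.16-fold higher, made up most of the control's sum. The part of these 12 markers in the values of the triad genes was not tested. In RNA from a cell population, fewer cells of a type and less RNA per cell cannot be told apart.

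Most triad genes stood far higher in the Cipc scko library. Calling a gene took a ratio of 2-fold or more and a 95% counting interval that left out equality. By this rule 9 of the 10 were higher and 0 lower, whereas among all 12874 genes past the filter on low counts 21.2% were higher and 15.9% lower. With a limit of 4-fold, 8 of the 10 were higher, beside 12.5% of all genes (6.68% were at least 4-fold lower). The median log2 ratio of the 10 was 3.38, against 0.01 over all genes past the filter. Holding Cacna1s and Casq1 at a floor of 3 counts could not change this median, as both still lie above it. Cacna1s, Casq1 and Trdn passed the filter through their level in Cipc scko and not through that in Cipc flox/flox, so they had to differ. Of the 7 members that passed it in the control, 6 were higher. The ratios of the 10 were unequal and spread from 1.22-fold for Cacng1 to at least 1074-fold (lower limit of the counting interval) for Cacna1s.

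**Figure D1:**
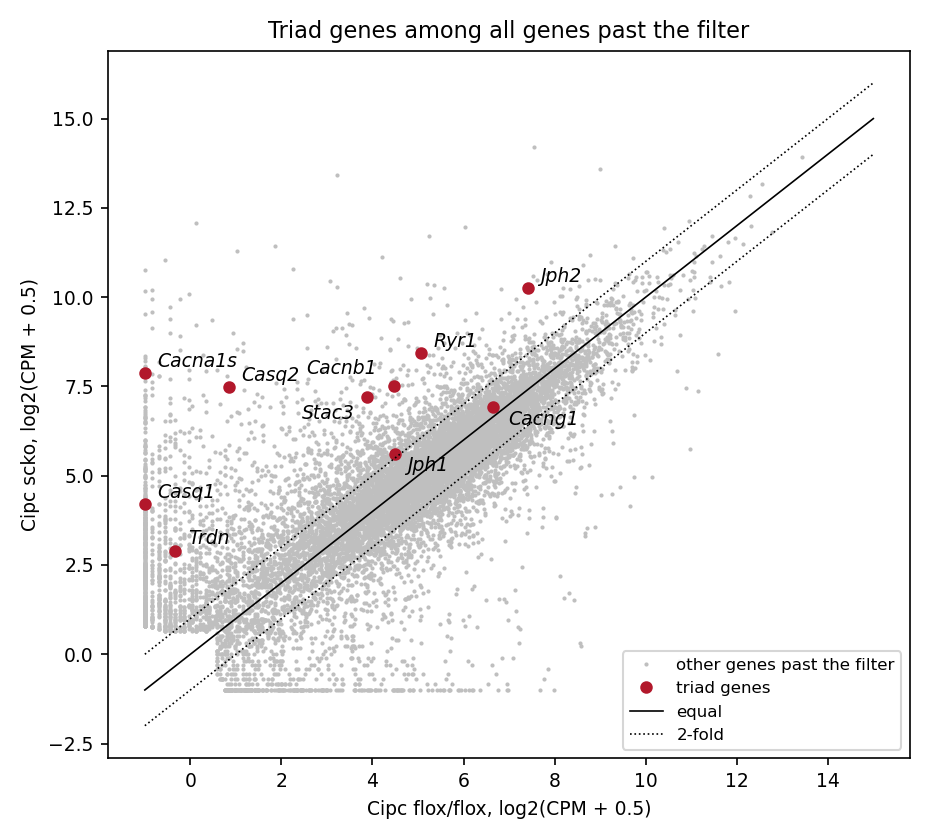
Each point is a gene past the filter, with log2(CPM + 0.5) in Cipc flox/flox on the x axis and in Cipc scko on the y axis, and red points are the 10 triad genes; the solid line marks equality and the dotted lines 2-fold differences. Cacng1 lies close to equality at 121.6 and 99.96 CPM, Jph1 near the 2-fold line, and Cacna1s and Casq1 at the left edge, at 0 in Cipc flox/flox.

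Among the voltage sensor genes, Cacna1s differed most and Cacng1 least. Cacna1s (ENSMUSG00000026407, GRCm38 chromosome 1, 136052750 to 136119822) encodes the pore-forming subunit that senses the membrane voltage. It had 3761 counts (234.3 CPM) in Cipc scko against 0 in the control. Against a floor of 3 counts, or 0.177 CPM, it was 1322-fold higher, and its 95% counting interval began at 1074-fold.

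Cacnb1 (ENSMUSG00000020882, chromosome 11, 98001508 to 98023034), the beta subunit that carries the channel to the triad, had 2900 counts in Cipc scko against 366 in the control. The levels were 180.6 and 21.6 CPM, 8.34-fold higher in Cipc scko (95% counting interval 7.49 to 9.34). Stac3 (ENSMUSG00000040287, chromosome 10, 127501686 to 127508823), an adaptor needed for coupling the sensor to the release channel, had 2381 and 242 counts. Its level was 148.3 and 14.3 CPM, 10.4-fold higher (9.08 to 11.9).

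Cacng1 (ENSMUSG00000020722, chromosome 11, 107703218 to 107716522) encodes the gamma subunit, which restrains the channel. It had 1953 counts in Cipc scko against 1692 in the control, 121.6 and 99.96 CPM. The ratio of 1.22 (1.14 to 1.3) excluded equality by counting error and did not reach 2-fold. The Cipc flox/flox library therefore held the gamma subunit RNA at nearly the level of the other library, at 0 counts of the pore-forming subunit.

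The release channel gene Ryr1 (ENSMUSG00000030592, chromosome 7, 29003344 to 29125179) had 5552 counts in Cipc scko against 559 in the control. Its level was 345.8 and 33.0 CPM, 10.5-fold higher in Cipc scko (9.60 to 11.4). Ryr1, Stac3 and Cacnb1 were detected in both libraries. The counting interval of the ratio of Stac3 overlapped that of Ryr1 and that of Cacnb1, whereas those of Ryr1 and Cacnb1 did not overlap.

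The junctophilins differed by unequal factors. Jph2 (ENSMUSG00000017817, chromosome 2, 163336242 to 163397993), known as the main junctophilin of the heart and also made in skeletal muscle, had 19484 counts in Cipc scko against 2880 in the control. At 1214 and 170.2 CPM it was 7.13-fold higher (6.86 to 7.42). Jph1 (ENSMUSG00000042686, chromosome 1, 16964560 to 17097889), the junctophilin of skeletal muscle, had 775 and 371 counts, or 48.3 and 21.9 CPM. It was 2.20-fold higher, with an interval of 1.94 to 2.50 that holds the 2-fold limit. On the scale of deposited FPKM with a pseudocount of 0.1 or 1, the log2 ratio of Jph1 was 0.99 or 0.86 and it was no longer called. With counts scaled by library totals, as the deposited FPKM are, the ratio was 1.002, still called but at the limit.

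The calsequestrins and triadin were at or near 0 in Cipc flox/flox. Casq1 (ENSMUSG00000007122, chromosome 1, 172209894 to 172219868), the calsequestrin of fast fibres, had 288 counts (17.9 CPM) in Cipc scko against 0 in the control. It was 101-fold higher against the floor of 3 counts, and its counting interval began at 81.8-fold. Casq2 (ENSMUSG00000027861, chromosome 3, 102086415 to 102146514), the calsequestrin of heart and slow fibres, had 2879 and 22 counts. Its level was 179.3 and 1.3 CPM, 135-fold higher (90.9 to 221). Trdn (ENSMUSG00000019787, chromosome 10, 33080554 to 33476709) had 112 and 5 counts, or 6.98 and 0.295 CPM. It was 21.5-fold higher, and its low count in Cipc flox/flox left a wide interval of 9.82 to 74.1.

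Casq2 and Jph2 are also heart genes, so markers of cardiac muscle were read beside them. Of 12 cardiac markers listed, 6 were found in the count table, and Nppa, Tbx5, Tbx20, Hand2, Myl7 and Ryr2 were not. Of the 6 found, 3 were higher in Cipc scko and 3 lower. Among them, 2 higher markers passed the filter through Cipc scko alone and the 3 lower ones through the control alone. The heart transcription factor genes Gata4 and Nkx2-5 and the natriuretic peptide gene Nppb were at 0 counts in Cipc scko and at 750, 34 and 40 in Cipc flox/flox. Myl4, made in atrium and in embryonic skeletal muscle, had 40271 and 26 counts and made up most of the summed cardiac list (2515 and 50.4 CPM). Of 7 smooth muscle and pericyte markers measured, 6 were higher in Cipc scko and 1 lower (summed 12940.5 and 627 CPM). Of these, 4 passed the filter through Cipc scko alone and 1 through the control alone. Acta2, at 12432 and 513 CPM, made up most of both sums. The part of this list in the triad values was not tested. Endothelial markers summed to 8.22 and 0.886 CPM, with Tek at 0 in Cipc scko and Pecam1 at 0 in Cipc flox/flox. Kdr, at 6.98 and 0.118 CPM, made up most of the sum in Cipc scko. It was the 1 endothelial marker past the filter, through Cipc scko alone. Macrophage markers summed to 4.73 and 26.5 CPM. Cd68, with 30 and 425 counts, made up most of the control's sum. Csf1r was higher in Cipc scko at 37 and 9 counts and passed the filter through that library alone. Of 5 fibro-adipogenic markers past the filter 3 were lower in Cipc scko and 1 higher (summed 407 and 488 CPM). The lower ones were Dcn at 1 and 142 counts, Cd55 at 1 and 198 and Pdgfra at 11 and 147. These 3 passed the filter through the control alone and the 1 higher marker through Cipc scko alone. Ly6a, not called at 405 and 459 CPM, made up most of both sums. Of 3 markers of neurons and glia past the filter 2 were lower, with Nefl at 0 and 1820 counts and Nefm at 0 and 1219 (summed 247 and 309 CPM). Both passed the filter through the control alone. Tubb3 went the other way at 3950 and 2192 counts, 1.90-fold higher in Cipc scko and not called. At 246 CPM it made up nearly all of the sum in Cipc scko. The part of these lists in the triad values was not tested either.

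The median ratio of an autosome was also set beside the members it carries. The median log2 ratio, over genes with a mean of at least 5 CPM, was -0.39 on chromosome 10 (531 genes), which carries Stac3 and Trdn, and 0.36 on chromosome 7 (781 genes), which carries Ryr1. Relative to the median of their own chromosomes the genes counted in both libraries lay between 0.45 (Cacng1) and 7.25 (Casq2) above on the log2 scale. Jph1 lay 1.26, Ryr1 3.03 and Stac3 3.76 above.

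The promoters of 4 members show the sequence upstream of the genes with the largest differences (Cacna1s, Casq1, Casq2) and of the most abundant member, Jph2. They are GRCm38.p6 sequences of RefSeq promoter windows, in which Cacng1, Stac3, Jph1 and Trdn had no entry, cut at the RefSeq start or the first GENCODE exon of the gene, whichever lies further upstream. Cacnb1 had 2 windows, which were too short after this cut and were not searched. Jph2 also had 2 windows, and the first that left enough sequence was used. The stretches are chr1:136052561-136052749 (plus strand) for Cacna1s, chr1:172219896-172220145 (minus strand) for Casq1, chr3:102086165-102086414 (plus strand) for Casq2 and chr2:163397994-163398243 (minus strand) for Jph2. They are printed on the strand of the gene, 5′ to 3′, and capitals mark E-boxes (CANNTG, the same on either strand), the motif of basic helix-loop-helix factors.
Cacna1s: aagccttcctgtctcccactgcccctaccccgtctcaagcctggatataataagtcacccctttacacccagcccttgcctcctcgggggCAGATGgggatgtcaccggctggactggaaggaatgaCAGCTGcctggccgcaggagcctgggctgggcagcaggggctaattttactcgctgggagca
Casq1: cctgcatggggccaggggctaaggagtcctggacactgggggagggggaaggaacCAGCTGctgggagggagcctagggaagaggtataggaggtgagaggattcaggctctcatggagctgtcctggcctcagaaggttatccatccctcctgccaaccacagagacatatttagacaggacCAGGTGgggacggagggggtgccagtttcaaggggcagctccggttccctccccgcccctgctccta
Casq2: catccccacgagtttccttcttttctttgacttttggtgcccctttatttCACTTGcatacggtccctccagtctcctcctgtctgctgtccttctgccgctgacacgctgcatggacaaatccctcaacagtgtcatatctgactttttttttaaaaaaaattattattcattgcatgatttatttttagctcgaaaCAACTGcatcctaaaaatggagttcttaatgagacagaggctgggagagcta
Jph2: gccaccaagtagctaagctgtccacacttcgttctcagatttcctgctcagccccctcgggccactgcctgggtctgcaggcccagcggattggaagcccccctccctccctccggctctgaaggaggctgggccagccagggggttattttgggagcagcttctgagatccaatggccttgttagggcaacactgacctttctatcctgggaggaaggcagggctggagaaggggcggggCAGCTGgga

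Cacna1s, Casq1 and Casq2 had 2 E-boxes each and Jph2 had 1. An E-box was common in general: the same stretch held one in 66.2% of 32851 RefSeq promoter windows at 250 bases and in 57.1% at 189 bases, the length for Cacna1s. The E-box CAGCTG, a subset of CANNTG that myogenic factors are known to bind, was matched once each in Cacna1s, Casq1 and Jph2, and in 9.77% of windows at 189 bases and 13.0% at 250. All motifs were searched on both strands. The E-box CACGTG, which CLOCK and BMAL1 are known to bind and which is also a subset of CANNTG, was matched in none of the 4 stretches (6.02% of windows at 250 bases). Casq2 had 1 match to the MEF2 motif, searched as its degenerate consensus (2.92% of windows), and Cacna1s had 1 match to the MCAT motif CATTCC (10.1%). A CArG motif was matched in none of the 4 (1.47% at 250 bases). In Ryr1 (chr7:29125180-29125401, minus strand, not printed) none of these motifs was matched. A match is a description of the letters, not a site of binding.

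Levels of different genes are compared below as FPKM, the values deposited per kilobase of gene and per library. In Cipc scko, Jph2 was the most abundant triad RNA at 233.5 FPKM, above 98.6% of genes past the filter. Cacng1 followed at 92.9, Casq2 at 42.3, Stac3 at 37.7, Cacnb1 at 27.4, Cacna1s at 22.8 and Ryr1 at 20.8 FPKM. Jph1 (8.49), Casq1 (5.87) and Trdn (1.47 FPKM) came last. The counting intervals of neighbours in this order did not overlap. Trdn stood above 25.3% of genes past the filter.

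In Cipc flox/flox the order began with Cacng1 at 83.9 FPKM and Jph2 at 36.0 FPKM. Jph1 (4.24), Stac3 (3.996) and Cacnb1 (3.599 FPKM) followed, with overlapping intervals between neighbours, and then Ryr1 at 2.18 FPKM. Casq2 (0.337) and Trdn (0.0686 FPKM) rested on 22 and 5 counts, and Cacna1s and Casq1 were at 0, which allows up to 0.0190 and 0.0638 FPKM at 3 counts. The gamma subunit RNA was thus the leading triad RNA of this library, above 95.7% of genes past the filter.

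**Figure D2:**
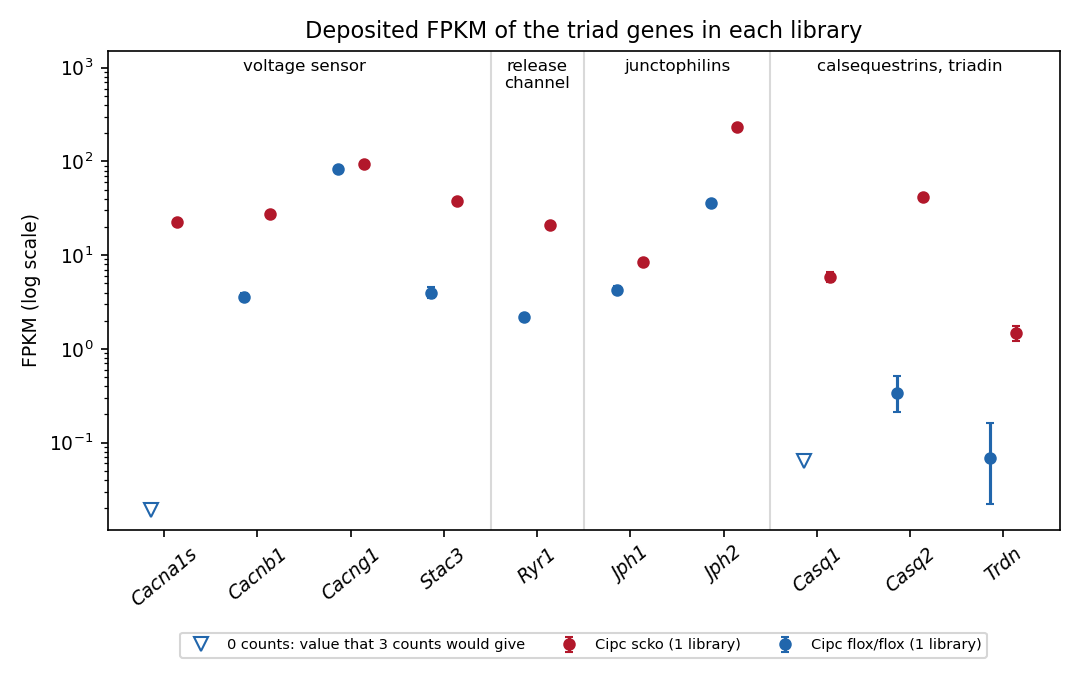
FPKM (y axis, log scale) of each triad gene (x axis, by role) in the Cipc scko library (red) and the Cipc flox/flox library (blue), with 95% Poisson counting intervals where wider than the point; open triangles stand for 0 counts and are drawn at the value 3 counts would give. Cacng1 is close in both libraries, at 92.9 and 83.9 FPKM, and the calsequestrins and Trdn lie at or below 0.337 FPKM in Cipc flox/flox.

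The order of neighbours depends on the gene length used. The length implied by the deposited FPKM was 1.48 times the annotated exonic length for Stac3 and 1.48 times for Casq2, and 1.0 times for Cacng1. With counts per kilobase of the longest annotated transcript, scaled to library totals as FPKM are, Stac3 (79.0) stood above Casq2 (66.9) in Cipc scko, and Jph1 (4.78) stood below Stac3 (8.37) and Cacnb1 (6.68) in Cipc flox/flox. Jph2, Cacng1, Cacna1s, Ryr1, Casq1 and Trdn kept their places in both libraries.

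Within gene families, the libraries differed in how the RNA was shared among paralogues. Stac2, the paralogue known mainly from neurons, had 2696 counts in Cipc scko against 5254 in the control. Its log2 ratio was -0.89 (-0.95 to -0.82), short of 2-fold. Stac3 made up 42.4% of the summed STAC FPKM in Cipc scko (41.1 to 43.8) and 3.78% in Cipc flox/flox (3.33 to 4.28). With counts per kilobase of the longest transcript these shares were 59.4% and 7.27%, so which paralogue led in Cipc scko depends on the length used.

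Among beta subunits, Cacnb3, known from channels of other tissues, was nearly equal at 1921 and 2108 counts (119.7 and 124.5 CPM, log2 ratio -0.06, -0.15 to 0.03). Cacnb1 made up 42.8% of beta subunit FPKM in Cipc scko (41.3 to 44.2) and 7.91% in Cipc flox/flox (7.12 to 8.76). By the longest transcript the shares were 54.7% and 12.2%, so here too the leader in Cipc scko depends on the length.

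Casq2, Jph2 and Ryr1 led their families in both libraries. Casq2 made up 87.8% of calsequestrin FPKM in Cipc scko (86.4 to 89.1), and in Cipc flox/flox all 22 calsequestrin counts were those of Casq2. Jph2 made up 96.5% of junctophilin FPKM in Cipc scko and 89.5% in the control, and Ryr1 98.0% and 96.3% of ryanodine receptor FPKM. Ryr3, the ryanodine receptor of developing muscle, had 145 and 28 counts, and Ryr2 was not found in the count table. Of the L-type pore subunits, Cacna1s made up 99.7% in Cipc scko, beside 28 counts of Cacna1c and 4 of Cacna1d, while all of them were at 0 counts in Cipc flox/flox.

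**Figure D3:**
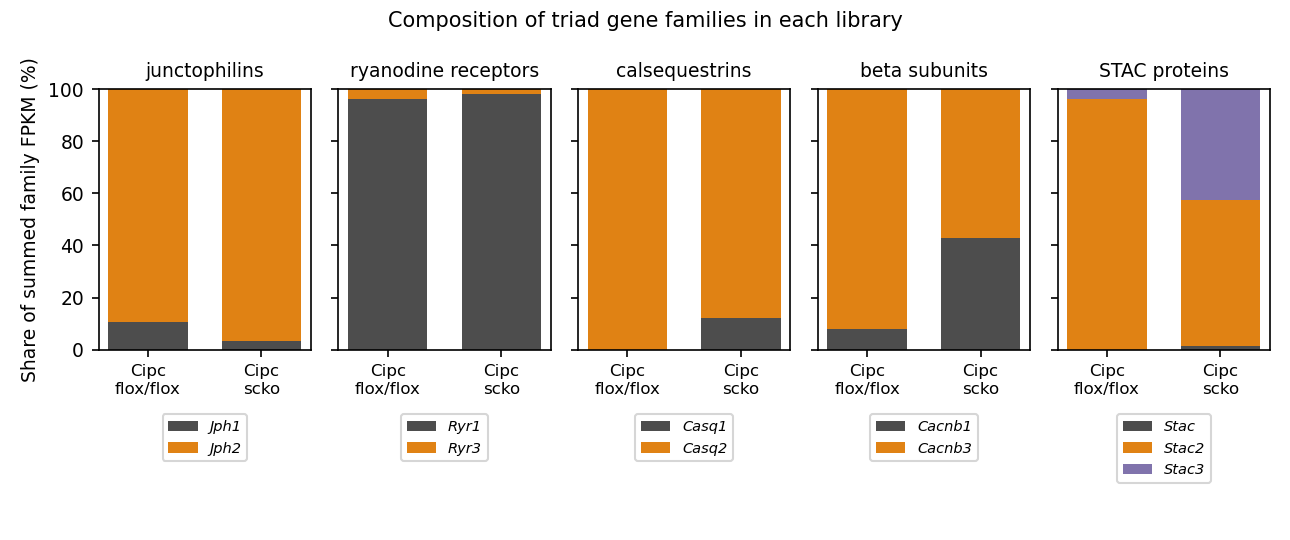
Share of the summed FPKM of each family (y axis, percent) held by each paralogue in the Cipc flox/flox library (left bar) and the Cipc scko library (right bar); paralogues under 0.5% in both are not drawn. Stac3 holds 3.78% and 42.4% and Cacnb1 7.91% and 42.8% of their families (control and Cipc scko), while Casq2, Jph2 and Ryr1 hold most of theirs in both libraries.

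Paralogous transcripts were compared because shared reads could mix their counts. The closest transcript to Casq1 was Casq2, at 68.7% identity over 1130 bases, and the closest to Cacna1s was Cacna1c at 74.2% over 3645 bases. No other gene had a copy of a member at 95% identity over 80% of the shorter transcript, except Gm44408, a 66-base RNA that overlaps Ryr1 exons. Antisense genes overlapped exons of Cacna1s, Cacnb1, Ryr1, Jph1 and Casq1. No source used here says whether counting used strand. The antisense partners in the count table were Gm17224 at Casq1, with 2 and 0 counts, and Gm11629 at Cacnb1, with 5 and 9.

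The other genes of the calcium release system were read from 5 lists. Of 56 genes past the filter in these lists, 29 were higher in Cipc scko and 4 lower, beside 21.2% and 15.9% of all genes, and their median log2 ratio was 1.15. Of the 29, 13 were under 1 CPM in Cipc flox/flox and passed the filter through Cipc scko alone, so they had to differ, and the other 16 were among 43 genes that passed it in the control. Junctional and luminal proteins of the sarcoplasmic reticulum had 8 of 11 higher, 0 lower and a median of 2.79. Of the 8, 1 passed the filter through Cipc scko alone, and 7 were among 10 that passed it in the control. Srl, the luminal calcium binder sarcalumenin, had 12040 and 174 counts (log2 ratio 6.18, 5.97 to 6.41). Hrc, a histidine-rich calcium binder that contacts triadin, had 2138 and 77 counts (4.86, 4.54 to 5.22). Jsrp1, a junctional protein that binds the voltage sensor and calsequestrin, had 3337 and 570 counts (2.62, 2.50 to 2.76), and the counter-ion channel Tmem38a 3008 and 459 (2.79, 2.65 to 2.93). Tmem38b (1.59) and Ank1 (3.26), whose small isoform anchors the reticulum to the sarcomere, were also higher. Calr and Calu, calcium binders of the reticulum in most cells, had log2 ratios of 0.70 and 0.18 and were not called.

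Of 8 genes of T-tubule formation, 5 were higher and 0 lower, around a median of 2.10, beside 21.2% and 15.9% of all genes. Of the 5, 2 were under 1 CPM in Cipc flox/flox and passed the filter through Cipc scko alone, so they had to differ. Of the 6 genes that passed it in the control, 3 were higher. Cav3, the muscle caveolin, had 1826 counts in Cipc scko against 0 in the control, and Tcap, a Z-disc protein near the T-tubule, 213 and 0. Trim72, a membrane repair protein, had 6789 and 29 counts (7.92, 7.42 to 8.53), and Dysf, which acts with it, 2513 and 330 (3.0). Bin1, which bends the T-tubule membrane, was high in both libraries at 535.0 and 358.7 FPKM and not called (0.71). Mtmr14 (0.09, below 0 when libraries were scaled by totals) and Dnm2 (-0.28) were likewise not called. The remaining higher gene, Mtm1, which encodes the phosphatase myotubularin and is named after its values were seen, had 72 and 33 counts (1.19, 0.59 to 1.84).

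Of 9 voltage sensor relatives, 5 were higher and 0 lower, beside 21.2% and 15.9% of all genes. These 5 were under 1 CPM in Cipc flox/flox and passed the filter through Cipc scko alone, so they had to differ. The 4 that passed it in the control had ratios below 0 and were not called: Stac2 (-0.89), Cacna2d1 (-0.66), Cacnb2 (-0.50) and Cacnb3 (-0.06). Cacng7 had 746 and 2 counts and Cacng6 534 and 9, log2 ratios of 8.29 and 5.89, unlike the near-equal Cacng1. Stac had 63 and 2 counts (4.74, 3.14 to 8.13). The median of 4.74 (3.299 with members at 0 counts in Cipc flox/flox set to their bound) therefore falls among those 5, on Stac itself, and was 2.92 with a filter of 5 CPM. The summed level of the list was 437 CPM in Cipc scko and 521 CPM in the control. Cacnb2 had 18 and 27 counts, an interval that included equality.

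Regulators of release channels did not share the pattern, with 3 of 14 higher, 3 lower and a median of -0.06. Among all genes 21.2% were higher and 15.9% lower. Itpr3, an inositol trisphosphate receptor, had 947 counts in Cipc scko against 7585 in the control (-2.92, -3.02 to -2.83). The calmodulin genes Calm2 (0.06) and Calm3 (0.13) were not called. Sri, the calcium sensor sorcin, was lower (-1.10, -1.23 to -0.97). The ryanodine receptor binding protein Fkbp1a (-0.72), S100a1 (-0.17), the triad kinase Speg (0.22) and Selenon (0.10) were not called, and the signs of Calm2, Calm3 and Selenon turned when libraries were scaled by totals.

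In calcium reuptake, buffering and entry 8 of 14 genes were higher and 1 was lower, around a median of 1.44. Among all genes 21.2% were higher and 15.9% lower. Of the 8, 5 were under 1 CPM in Cipc flox/flox and passed the filter through Cipc scko alone, so they had to differ. Of the 9 genes that passed it in the control, 3 were higher. Atp2a1, the calcium pump of fast fibres, had 9637 and 190 counts (5.74, 5.53 to 5.96), while Atp2a2, the pump of slow fibres and most other cells, had 14054 and 10065 (0.56) and was not called. Pvalb, the cytosolic calcium buffer of fast fibres, had 417 and 0 counts. Stim1, the store calcium sensor, was higher (1.12, 0.94 to 1.299). That call was lost with libraries scaled by totals (0.98) and on the deposited FPKM scale with a pseudocount of 0.1 (0.97) or 1 (0.88). Its channel partners Orai1 (0.73) and Orai3 (-0.26) were not called. The plasma membrane pumps went opposite ways: Atp2b4 had a log2 ratio of 1.75 and Atp2b1, with 686 and 5683 counts, of -2.97.

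**Figure D4:**
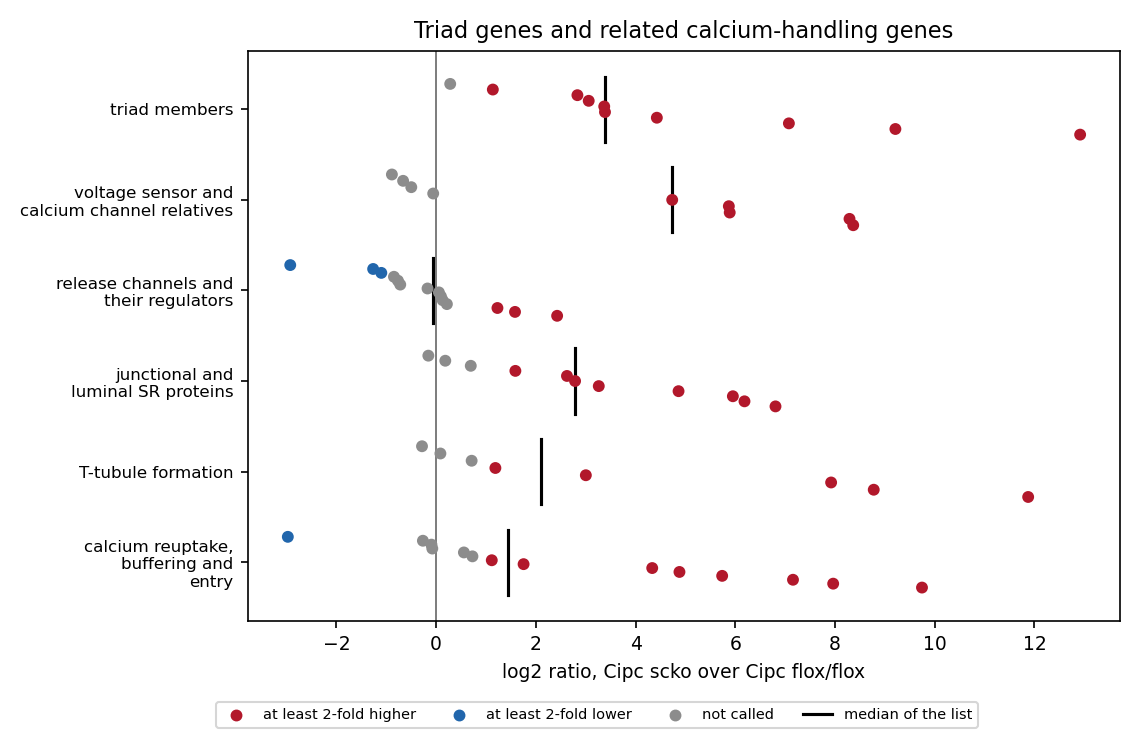
Ratio on a log2 scale, Cipc scko over the control (x axis), for each gene past the filter (points) in the triad set and 5 related lists (rows), with red for genes at least 2-fold higher, blue for at least 2-fold lower, grey for not called and a black bar at each median. The medians are 3.38 for the triad genes, 4.74, -0.06, 2.79, 2.10 and 1.44 for the lists from top to bottom; ratios of genes at 0 counts rest on the prior count of 0.5.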

How the data were processed

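Per the file headers, the authors deposited raw counts of each Ensembl gene in 1 table, and FPKM in 1 file per library. GRCm38, StringTie 1.3.0, HISAT2 2.0.4 and CASAVA are listed in the submitters' processing notes without their roles. The counting tool, annotation release, strand setting and filters: not given in the sources used here. The deposited FPKM were the counts rescaled: for 10899 genes with at least 20 counts in each library the FPKM ratio over the count ratio lay between 0.99996 and 1.00003. They served to compare genes with each other and as an alternative.

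GENCODE vM21 (GRCm38) gave symbols for 16116 of 16190 identifiers, positions and transcripts. Counts were scaled with TMM (edgeR 4.0.16, R 4.3.3), and genes entered at 1 CPM in a library and 20 counts in all. Log2 ratios used a prior count of 0.5. Their 95% intervals are exact binomial (Clopper-Pearson) intervals of the split of counts, computed with SciPy 1.17.1, and those of FPKM are exact Poisson. A gene at 0 was bounded at 3 counts per library. For Cacna1s and Casq1 the ratio at this bound lies above the lower limit of the counting interval. As reads carried no molecular identifiers, intervals and floors cover counting error only. Copies were searched with BLAST+ 2.17.0. A form of the call rule with a lower fold limit was run on simulated counts that held counting error only. That run cannot speak to variation between mice. The text names all members, Cipc, and genes of the other lists with at least 5 FPKM or paralogous to a member, except 1 gene of the release channel list that is not reported here. Members and lists were chosen with earlier results of these data known. Alternatives covered scaling, filter, prior count, unit, fold limit and gene length.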

Additional observations from a re-analysis of the deposited data

How the results depend on the processing

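Across 9 alternatives of scaling (totals, DESeq2 1.42.0 size factors, upper quartile, totals leaving out mitochondrial and the 10 most counted genes), filter, prior count and unit, no member's ratio changed sign. Of 90 such values 67 stayed within the counting interval and 23 moved out of it. The other filters could not alter a gene's ratio. Between 8 and 9 members were higher and 0 lower in each, and Jph1 was the member that lost its call. Cacng1 ranged from 0.15 to 0.32 and Jph1 from 0.86 to 1.18. Totals alone gave a member median of 3.24, and the deposited FPKM are scaled by totals too. With deposited FPKM and a pseudocount of 0.1 or 1, which pull low genes toward equality, the member median was 3.20 or 2.72. The medians of the other lists were then 0.60 or 0.072 (voltage sensor relatives), -0.19 or -0.19 (release channels), 2.64 or 2.17 (junctional and luminal), 1.71 or 1.47 (T-tubule) and 1.28 or 0.89 (reuptake and entry). With the pseudocount of 1, 1479 genes were higher, 3 of the voltage sensor relatives and 1 of the release channel genes. Stac2 was lower, the 1 lower relative, with totals and with both FPKM settings. Totals gave medians of -0.19 (release channels) and 1.2996 (reuptake and entry) and moved the median of all genes to -0.13. A prior count of 5 gave 2.76 for the voltage sensor relatives. A filter of 5 CPM left 3 of these higher and gave medians of -0.17 (release channels), 3.003 (T-tubule) and 1.12 (reuptake and entry), and no filter gave 1.75 for the last, since other genes entered. A limit of 4-fold left 1608 genes higher and 860 lower, and 1 release channel gene in each direction. By the longest transcript the shares were 97.5% for Ryr1 in Cipc scko, 54.7% and 12.2% for Cacnb1, and 59.4% and 7.27% for Stac3 (Cipc scko and Cipc flox/flox). The length alternative for single members was chosen after seeing the data. Totals left 50.8% of calls higher against 57.1%. No paired analysis was possible because each group has 1 library, and no replicate could be left out. Depth limits Trdn, Casq2 and the genes at 0 in Cipc flox/flox.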

Other observations

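The gene lengths behind the deposited FPKM, recovered from counts and library totals, did not follow one annotated length. For Cacng1 (1249 bases) and Trdn (4514 bases) the implied length equalled that of the longest GENCODE vM21 transcript. For Ryr1 it was 15845 bases, against 15358 in the longest transcript and 21838 in all exons joined. For Cacna1s (9797 against 6550), Casq1 (2913 against 1951), Casq2 (4048 against 2736) and Stac3 (3751 against 2543) it was longer than all annotated exons joined, by 1.475 to 1.496 times. Comparisons of FPKM between these genes carry that uncertainty, whereas ratios of a gene between the libraries do not.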
